A study of Homo sapiens with 24 samples.

Results

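Glycolysis and hypoxia genes are followed here in IMR90 cells as an oncogenic RAS protein was switched on. The list holds 39 genes. They are the enzymes of glycolysis and their isozymes, glucose and lactate transporters and PDK1, the kinase that holds pyruvate dehydrogenase inactive. With them stand the alpha subunits of the hypoxia-inducible factors (HIF), their prolyl hydroxylases, and genes known as HIF targets. A gene was read from the probe that carries its symbol in the platform annotation, and where several did, from the probe with the highest mean over the 24 arrays. Of the 39 genes, 36 had a named probe and 35 were tested among 10960 genes, and the platform names 18774 genes in all. PGAM1, SLC16A3 and CA9 had no named probe here. EGLN3, a HIF prolyl hydroxylase, was above background on 0 of 24 arrays and was not tested.

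IMR90 is a line of human fetal lung fibroblasts. All cells, those at 0 h included, carried RAS-G12V fused to the estrogen receptor (ER:RAS-G12V), which is silent until 4-hydroxytamoxifen (4-OHT) is added. Cells were taken untreated (0 h), after 2, 8 or 24 h, and after 2, 4, 6 or 8 d of 4-OHT at 100 nM. Each time has 3 biological replicates, called batches A, B and D. All were grown in serum-containing medium under ambient air with CO2 and passaged the day before harvest, so no group was placed in low oxygen. The sources used here do not say which RAS gene or promoter the construct has, nor whether the cells are a clone. Untreated cells of later times were not analysed here, so 4-OHT, the RAS protein and time in culture cannot be told apart. The 7 comparisons with 0 h also share its 3 arrays.

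Glycolysis splits glucose into pyruvate, which is either burned in mitochondria or turned to lactate. Isozymes encoded by separate genes carry out the same step with different regulation, and the phosphofructokinase step and its bisphosphatase regulators set much of the flux. When oxygen is low, prolyl hydroxylases no longer mark the HIF alpha subunits for destruction. The stabilised subunit then pairs with ARNT and switches on genes of glucose uptake, glycolysis, blood vessel growth and pH control. Because that switch acts on the protein, the RNA of HIF1A or EPAS1 does not report it. RAS signalling and cellular senescence in fibroblasts are both known for raised glucose use.

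HIF and its partner bind DNA at a short core. The promoters below are shown because these are the members with the largest rise or fall at 8 d for which a promoter sequence was given. The windows run from 250 bases before to 50 bases after an annotated start and come from RefSeq on GRCh38.p14. Capitals mark ACGTG or GCGTG on either strand (CACGT or CACGC on the printed strand), and where CACGTG appears both strands match and the 2 matches overlap. The ANGPTL4 window is chr19:8363905-8364204 on the plus strand. HK2 has 2 windows, chr2:74833877-74834176 and chr2:74834920-74835219, both on the plus strand. The BHLHE40 window is chr3:4979187-4979486 on the plus strand, that of PPP1R3C is chr10:91633022-91633321 on the minus strand, and that of EPAS1 is chr2:46297157-46297456 on the plus strand.
ANGPTL4: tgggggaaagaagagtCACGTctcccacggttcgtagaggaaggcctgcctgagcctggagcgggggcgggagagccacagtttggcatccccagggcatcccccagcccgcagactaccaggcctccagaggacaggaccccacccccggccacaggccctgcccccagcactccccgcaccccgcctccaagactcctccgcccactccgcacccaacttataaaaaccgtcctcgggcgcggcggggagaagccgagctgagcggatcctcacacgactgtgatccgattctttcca
HK2 window 1: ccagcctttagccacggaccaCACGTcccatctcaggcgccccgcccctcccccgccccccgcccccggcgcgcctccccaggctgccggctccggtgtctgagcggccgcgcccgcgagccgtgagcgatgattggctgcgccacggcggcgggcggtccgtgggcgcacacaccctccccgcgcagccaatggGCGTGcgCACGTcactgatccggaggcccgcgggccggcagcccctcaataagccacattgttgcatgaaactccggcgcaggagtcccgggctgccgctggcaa
HK2 window 2: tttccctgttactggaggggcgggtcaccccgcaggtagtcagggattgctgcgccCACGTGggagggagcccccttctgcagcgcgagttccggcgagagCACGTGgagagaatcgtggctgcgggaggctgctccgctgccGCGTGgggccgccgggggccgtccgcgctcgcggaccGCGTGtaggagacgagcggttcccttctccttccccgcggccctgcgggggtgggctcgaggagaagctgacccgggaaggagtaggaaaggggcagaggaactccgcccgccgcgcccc
BHLHE40: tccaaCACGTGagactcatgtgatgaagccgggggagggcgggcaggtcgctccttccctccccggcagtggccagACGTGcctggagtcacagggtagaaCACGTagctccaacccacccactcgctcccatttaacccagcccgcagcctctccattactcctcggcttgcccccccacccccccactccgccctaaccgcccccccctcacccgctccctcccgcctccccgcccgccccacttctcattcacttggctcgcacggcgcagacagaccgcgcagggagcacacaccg
PPP1R3C: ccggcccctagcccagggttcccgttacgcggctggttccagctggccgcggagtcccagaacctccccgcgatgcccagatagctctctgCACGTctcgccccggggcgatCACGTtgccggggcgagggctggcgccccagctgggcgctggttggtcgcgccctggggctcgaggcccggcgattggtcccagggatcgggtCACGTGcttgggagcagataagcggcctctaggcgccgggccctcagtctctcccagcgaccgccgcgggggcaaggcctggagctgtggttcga
EPAS1: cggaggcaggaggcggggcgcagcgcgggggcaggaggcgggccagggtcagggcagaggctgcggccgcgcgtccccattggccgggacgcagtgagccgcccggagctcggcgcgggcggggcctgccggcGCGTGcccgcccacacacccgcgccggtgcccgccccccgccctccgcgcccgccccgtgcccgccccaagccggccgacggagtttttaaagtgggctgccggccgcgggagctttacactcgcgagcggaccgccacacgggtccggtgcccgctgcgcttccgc

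The ANGPTL4 window holds 1 match, the HK2 windows 3 and 6, those of BHLHE40 and PPP1R3C 4 each, and that of EPAS1 1. Of the 39 listed genes 36 had a promoter entry, with 64 windows, and 44 of these (68.8%) hold at least 1 match, against 48.4% of the 35116 windows of all genes. Counted by gene, 33 of the 36 (91.7%) have a match in some window, against 70.0% of the tested genes with an entry. The 36 include PGAM1, SLC16A3, CA9 and EGLN3, which were not tested. They have 64 windows, some overlapping, while all 27305 genes with an entry have 35116. A gene with more windows has more places for a match, and the shares were not adjusted for this. CACGTG lies in 14.1% of the member windows and 7.26% of all windows. Counted by gene, it lies in 25.0% of the 36 members and 12.6% of the tested genes with an entry. The list includes genes known as HIF targets, so a higher share of matches is partly built in. These are letter matches in short windows, and no binding was measured.

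The fibroblast label was checked with 11 marker genes such as COL1A1 and VIM, all of which were above background on all 24 arrays. Among the markers of other cells, the epithelial CDH1, KRT5 and SFTPC, the endothelial CDH5 and the immune PTPRC, CD3E and CD14 were above background on 0 of 24 arrays. Others of these lists were detected: KRT18, MUC1 and TEK on 24 arrays, VWF on 18, TIE1 on 12, CLDN5 on 8, KRT19 on 7, KRT8 on 6, PECAM1 on 5, EPCAM on 4 and KDR on 3. The 11 fibroblast markers summed to linear intensities of 56194 to 62762 per array at 0 h and 30237 to 32019 at 8 d. Of these 11, 8 fell at 8 d, when 23.5% of all genes did. Epithelial markers (10 genes) summed to 1579 to 1773 at 0 h and 1129 to 1175 at 8 d. Endothelial markers (8 genes) summed to 821 to 1023 and 682 to 889, and immune markers (7 genes) summed to 1127 to 1244 and 2083 to 2233, with CD68 the 1 immune marker above background. The part of these shifts in the results below was not tested, and in bulk RNA fewer cells of a type and less RNA per cell cannot be told apart. Between 26.7% and 29.9% of probes were above background per array. The number of arrays, 3 per time, limits the precision, and p-values measure the spread between these replicate cultures.

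All values below are log2 intensities, given in the order A, B and D where 3 arrays are listed, and changes are log2 differences ± standard error from limma over all 24 arrays (n = 3 arrays per time). A gene was called where its p, adjusted by Benjamini-Hochberg over 10960 genes, was under 0.05. Over the whole course 31 of 35 members passed limma's F test for any difference from 0 h, when 69.6% of all genes did. The members that missed it were ALDOA, TPI1, PGK1 and PKM. Each of these acts at a central step of glycolysis: the aldolase and triosephosphate isomerase steps, the phosphoglycerate kinase step and the pyruvate kinase step.

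The rise of the members was broadest at 4 d. At 2 h and again at 8 h, 3 members rose and 1 fell, when 0.62% and 4.58% of all genes were called. At 24 h, 5 rose and 4 fell (18.1% of all genes called), and at 2 d 12 rose and 4 fell (23.6%). At 4 d, 19 of 35 rose and 3 fell, with a median change of 0.68, when 44.1% of all genes were called and 21.8% rose. At 6 d, 15 rose and 6 fell (45.5% of all genes called), and at 8 d 15 rose and 8 fell (47.6%). The member median was 0.34 at 6 d and 0.27 at 8 d, and the median of all genes lay between −0.03 and 0.04 of the 0 h mean on every array. Quantile normalization gives every array the same distribution of probe values, so that narrow range is largely set by the processing.

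The 4 d arrays did not give the same size of shift. Set against the mean of the 0 h arrays, the member median at 4 d was 0.74, 0.83 and 0.33 in batches A, B and D. At 6 d it was 0.36, 0.39 and 0.47, and at 8 d 0.21, 0.22 and 0.40. Batch D was thus the lowest array at 4 d and the highest at 6 d and 8 d, and all 9 of these arrays lay above the 0 h, 2 h and 8 h arrays, which ran from −0.05 to 0.07. With batch D left out of all times, 27 members were called at 4 d (23 rose and 4 fell).

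**Figure D1:**
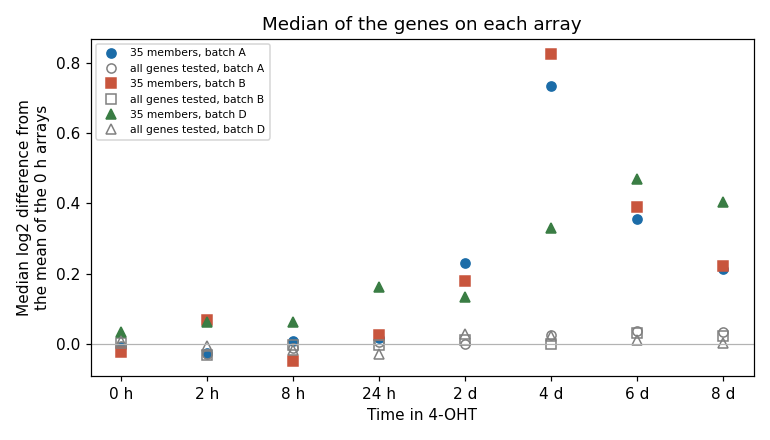
Median log2 difference of the 35 members (filled) and of all genes tested (open) on each of the 24 arrays from the mean of the 0 h arrays, by time in 4-OHT and batch. The member medians reach 0.74 and 0.83 in batches A and B at 4 d and 0.33 in batch D. The medians of all genes stay near 0, which quantile normalization largely sets.

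Scaling bears on these counts, since centring each array on its median in place of quantile normalization moved the median of all genes to −0.19 at 2 h, −0.01 at 8 h, −0.13 at 24 h, −0.10 at 2 d, −0.06 at 4 d, −0.12 at 6 d and −0.15 at 8 d. Among all called genes the share that rose went from 67.6% to 56.5% at 2 h, from 46.4% to 40.6% at 8 h and from 38.1% to 10.5% at 24 h. It went from 46.8% to 20.6% at 2 d, from 49.5% to 37.3% at 4 d, from 52.2% to 30.4% at 6 d and from 50.7% to 27.3% at 8 d. Under this centring the members that rose and fell numbered 2 and 1 at 2 h, 2 and 0 at 8 h, 0 and 6 at 24 h, and 7 and 4 at 2 d. They numbered 19 and 3 at 4 d, 13 and 6 at 6 d, and 8 and 8 at 8 d. The 4 d count is thus the same under both scalings, with ADM lost and SLC2A1 added as a fall, and the 8 d count is not. Under this centring the member median was 0.60 at 4 d, 0.12 at 6 d and 0.03 at 8 d. The calls lost at 8 d were those of ENO2 (0.54, adjusted p = 0.111), P4HA2 (0.45, 0.0703), NDRG1 (0.53, 0.0515), PFKFB3 (0.29, 0.246), PFKFB4 (0.44, 0.165), ANKRD37 (0.29, 0.18) and EGLN1 (0.29, 0.159). At 6 d those of PDK1, HIF1A and EGLN1 were lost, and at 2 d those of HK1, HK2, PFKP, ALDOC, SLC2A3, EGLN1 and EPAS1. At 24 h those of HK2, GPI, EGLN1, ANKRD37 and BHLHE40 were lost, at 8 h those of SLC2A3 and PPP1R3C, and at 2 h that of SLC2A3. The early counts also rested on single batches. Without batch A, 1 member was called at 2 h, 1 at 8 h, 2 at 24 h and 7 at 2 d. Without batch B the counts were 2, 2, 2 and 10. Later calls that held without any 1 array but not without a batch were, at 4 d, those of CA12 without batch A (adjusted p = 0.055), NDRG1 and ENO2 without batch B (0.0504 and 0.0603), PFKFB3 without A or B (0.0517 and 0.133) and ADM without A or B (0.0617 and 0.087). At 6 d they were those of ALDOC and P4HA2 without batch A (0.0619 and 0.0547) and LDHA without A or B (0.129 and 0.078). Single arrays moved the early counts too. The 8 h count was 2 without 0 h D or 8 h A, and the 24 h count was 5 without 0 h A, 4 without 0 h D and 5 without 24 h D.

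**Figure D2:**
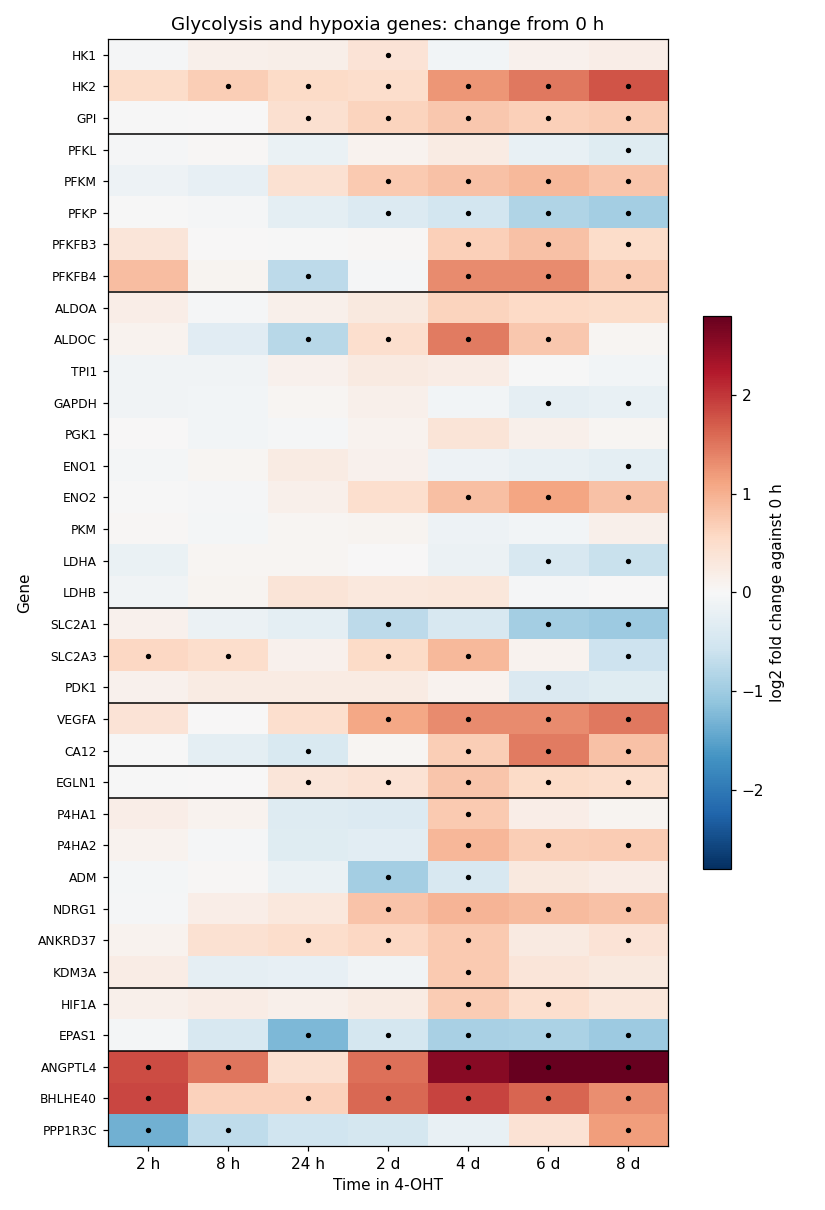
Log2 change of each of the 35 tested members (rows, with lines between groups of like role) from 0 h at each time in 4-OHT (columns); red is higher, blue is lower, and a dot marks an adjusted p under 0.05. The 4 d column holds 19 members that rose and 3 that fell, and the rows of ALDOA, TPI1, PGK1, PKM and LDHB have no dot.

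**Figure D3:**
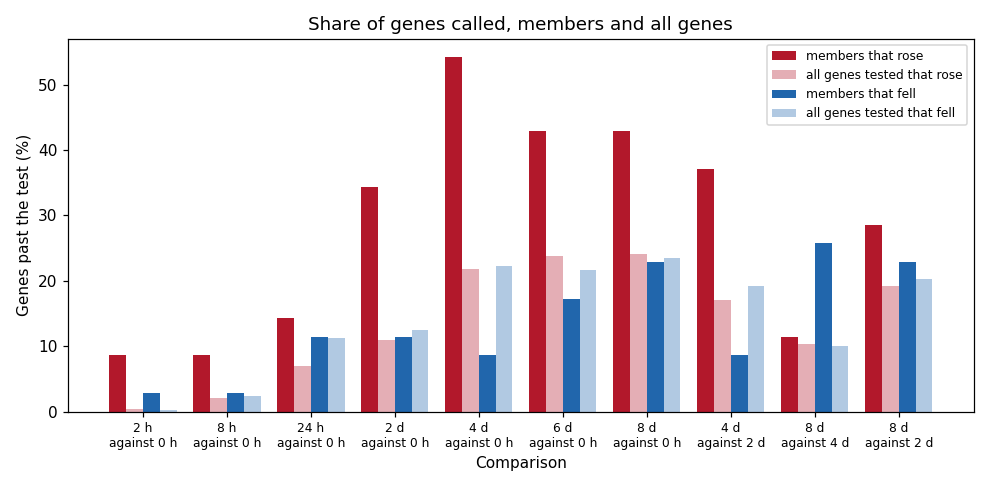
Share of the 35 members (dark bars) and of all 10960 genes (light bars) that rose (red) or fell (blue) past an adjusted p of 0.05 in each of 10 comparisons. At 4 d 19 members rose, when 21.8% of all genes did, and 3 fell, when 22.2% did.

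Glucose enters fibroblasts through the transporters SLC2A1 (GLUT1) and SLC2A3 (GLUT3), and both ended lower than they began. SLC2A3 read 11.02, 10.96 and 11.08 at 0 h, 11.64, 11.59 and 11.60 at 2 h, and 11.47, 11.52 and 11.55 at 8 h. At 24 h it read 11.10, 11.08 and 11.24, at 2 d 11.56, 11.49 and 11.59, and at 4 d 11.90, 12.11 and 11.76. It then read 11.21, 11.22 and 10.95 at 6 d and 10.26, 10.48 and 10.61 at 8 d. So it was high on all arrays at 2 h, 8 h, 2 d and 4 d, lay on both sides of the 0 h arrays at 6 d, and lay below every 0 h array at 8 d. It rose by 0.59 ± 0.10 at 2 h (adjusted p = 0.00455), 0.49 ± 0.10 at 8 h, 0.53 ± 0.10 at 2 d and 0.90 ± 0.10 at 4 d (adjusted p = 2.461e-07). It fell by 0.57 ± 0.10 at 8 d (adjusted p = 8.138e-05). The 2 h, 8 h and 2 d rises of SLC2A3 were not called with median centring (adjusted p = 0.473, 0.123 and 0.103). Those at 2 h and 8 h were also lost without batch A (0.519 and 0.218) or batch B (0.312 and 0.151).

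SLC2A1 read 8.87, 8.91 and 9.11 at 0 h and stayed between 8.59 and 9.18 at 2 h, 8 h and 24 h. It read 8.22, 8.28 and 8.21 at 2 d, 8.74, 7.86 and 8.97 at 4 d, 7.85, 7.81 and 8.39 at 6 d, and 8.01, 7.90 and 7.96 at 8 d. All arrays at 2 d, 6 d and 8 d lay below all at 0 h, and the 4 d arrays were far apart, with batch B low. It fell by 0.72 ± 0.19 at 2 d (adjusted p = 0.0084), 0.95 ± 0.19 at 6 d and 1.01 ± 0.19 at 8 d, which is 2.01-fold (adjusted p = 0.000148). PDK1, the kinase that holds pyruvate dehydrogenase inactive, was dim and above background on 15 of 24 arrays. At 6 d it was above background on 0 of 3 arrays and its fall (adjusted p = 0.0386) was at least 1.01-fold. The 6 d and 0 h arrays of PDK1 overlapped, and the call was lost without 0 h B, 0 h D, 6 d A or 6 d D (adjusted p = 0.0865, 0.186, 0.0681 and 0.161).

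At the hexokinase step, which traps glucose in the cell, HK2 rose early and rose further from 4 d, while HK1 was called against 0 h only at 2 d. HK2 read 8.21, 8.05 and 7.87 at 0 h, 8.58, 8.56 and 8.52 at 2 h, 9.01, 8.41 and 8.80 at 8 h, and 8.37, 8.52 and 8.82 at 24 h. It read 8.47, 8.60 and 8.50 at 2 d, 9.58, 9.02 and 9.25 at 4 d, 9.34, 9.55 and 9.69 at 6 d, and 9.70, 9.82 and 9.92 at 8 d. Every array from 2 h on lay above every 0 h array. The change of HK2 was 0.51 ± 0.15 at 2 h (adjusted p = 0.18, not called). It rose by 0.70 ± 0.15 at 8 h (adjusted p = 0.00775), 1.24 ± 0.15 at 4 d, 1.49 ± 0.15 at 6 d and 1.77 ± 0.15 at 8 d, which is 3.41-fold (adjusted p = 1.085e-09). The smaller HK2 rises at 8 h, 24 h (0.53 ± 0.15) and 2 d (0.48 ± 0.15) were lost without 0 h D (adjusted p = 0.0694, 0.0945 and 0.103). The rise at 8 h was also lost without 8 h A (0.067), that at 24 h without 24 h D (0.0972), and that at 2 d without 0 h B (0.0558) or 2 d B (0.0818).

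HK1, the hexokinase found in most tissues, rose by 0.39 ± 0.09 at 2 d (adjusted p = 0.00379) and lay between −0.08 and 0.19 of 0 h at the other times, with no call. A further HK1 probe, above background on 22 of 24 arrays, gave 0.04 at 2 d and 0.46 at 8 d, so the probes of HK1 disagree in time. GPI, the isomerase that follows hexokinase, rose by 0.44 ± 0.12 at 24 h, 0.62 ± 0.12 at 2 d, 0.77 ± 0.12 at 4 d, 0.67 ± 0.12 at 6 d and 0.70 ± 0.12 at 8 d (adjusted p = 3.517e-05). Its 24 h call was lost without 0 h A (0.37, adjusted p = 0.0682). Each GPI array from 24 h on lay above every 0 h array.

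At the phosphofructokinase step the isozymes went opposite ways. PFKM, the muscle type, rose by 0.74 ± 0.15 at 2 d, 0.83 ± 0.15 at 4 d, 0.92 ± 0.15 at 6 d and 0.78 ± 0.15 at 8 d (adjusted p = 0.000134). Its arrays from 2 d on (8.84 to 9.26) lay above those at 0 h (8.19 to 8.36). PFKP, the platelet type, fell by 0.38 ± 0.11 at 2 d, 0.50 ± 0.11 at 4 d, 0.84 ± 0.11 at 6 d and 0.94 ± 0.11 at 8 d, which is 1.92-fold (adjusted p = 1.116e-07). Its 8 d arrays (10.63 to 10.86) lay below those at 0 h (11.60 to 11.78), and its 2 d call was lost without 0 h B or 2 d D (adjusted p = 0.0502 and 0.0656). PFKL, the liver type, fell by 0.33 ± 0.13 at 8 d (adjusted p = 0.0372), a call that was lost without 0 h A, 0 h B, 0 h D or 8 d D (adjusted p = 0.0733, 0.0647, 0.0877 and 0.199).

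PFKFB3 and PFKFB4 make and break the bisphosphate that activates phosphofructokinase, and both were higher from 4 d. PFKFB4 read 10.27, 9.91 and 9.97 at 0 h, 11.48, 11.16 and 10.13 at 2 h, 10.36, 9.88 and 10.13 at 8 h, and 9.19, 9.12 and 9.65 at 24 h. It read 9.92, 9.94 and 10.21 at 2 d, 11.73, 11.29 and 11.07 at 4 d, 11.45, 11.59 and 11.09 at 6 d, and 10.71, 11.01 and 10.57 at 8 d. The 2 h arrays of batches A and B were high and that of batch D was not, the 24 h arrays were all low, and the 4 d, 6 d and 8 d arrays all lay above 0 h. PFKFB4 rose by 1.32 ± 0.24 at 4 d, which is 2.49-fold (adjusted p = 0.000122), by 1.32 ± 0.24 at 6 d and by 0.71 ± 0.24 at 8 d (adjusted p = 0.0193). Its change of 0.87 ± 0.24 at 2 h was not called (adjusted p = 0.15). Its fall of 0.73 ± 0.24 at 24 h (adjusted p = 0.0405) was lost without 0 h A, 0 h B, 0 h D, 24 h A or 24 h B (adjusted p = 0.143, 0.0553, 0.0779, 0.12 and 0.14). The 8 d rise was lost without 0 h B, 0 h D or 8 d B (0.0689, 0.0552 and 0.0882). PFKFB3 rose by 0.68 ± 0.19 at 4 d (adjusted p = 0.0049), 0.82 ± 0.19 at 6 d and 0.51 ± 0.19 at 8 d (adjusted p = 0.0261). Its 8 d call was lost without 0 h B, 0 h D or 8 d D (adjusted p = 0.107, 0.0548 and 0.177).

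**Figure D4:**
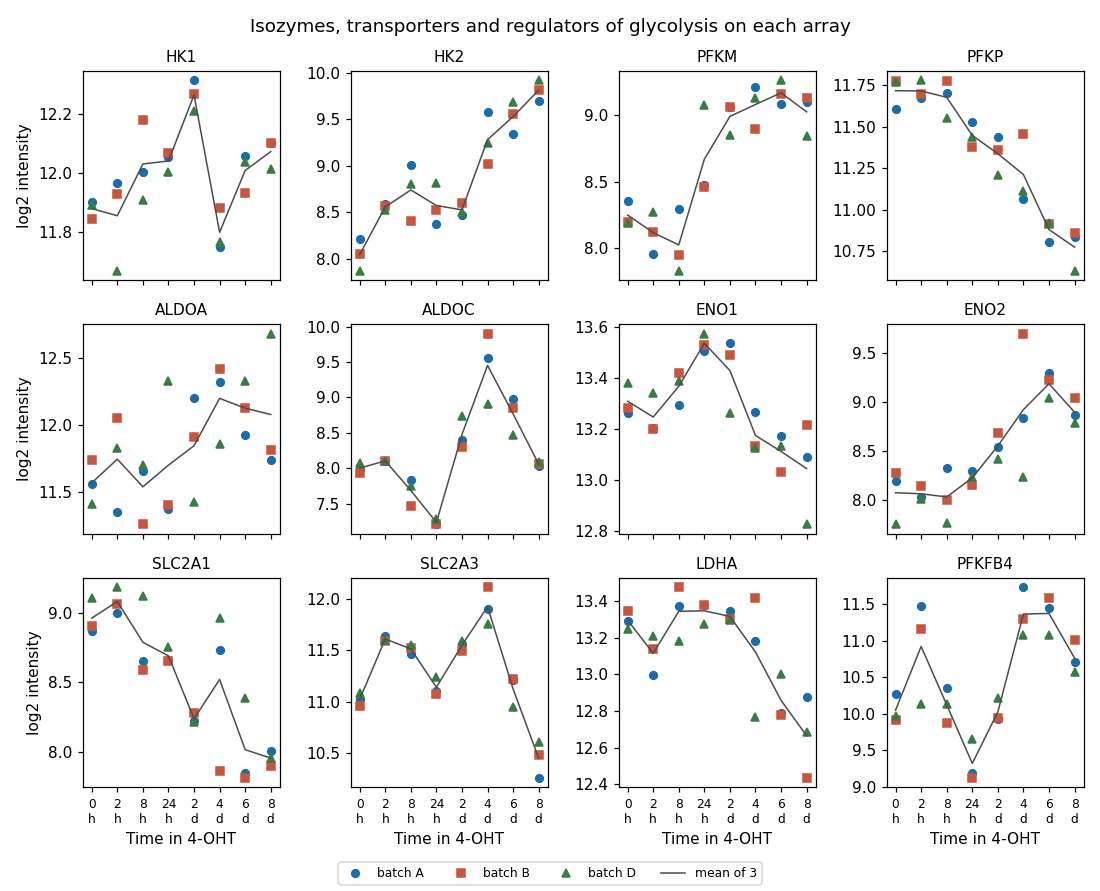
Log2 intensity of 12 members of glycolysis and glucose transport on each array by time in 4-OHT; points are arrays, with colour and shape for the batch, and lines join the means of 3. HK2, PFKM and ENO2 climb, PFKP, SLC2A1 and LDHA end low, and ALDOC and SLC2A3 peak at 4 d.

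In lower glycolysis ALDOC and ENO2, isozymes best known from nervous tissue, rose at 4 d and 6 d. ALDOC, an aldolase, read 8.00, 7.94 and 8.08 at 0 h, 8.11, 8.11 and 8.10 at 2 h, 7.84, 7.47 and 7.75 at 8 h, and 7.21, 7.22 and 7.28 at 24 h. It read 8.39, 8.30 and 8.74 at 2 d, 9.55, 9.90 and 8.91 at 4 d, 8.97, 8.86 and 8.48 at 6 d, and 8.03, 8.06 and 8.09 at 8 d. ALDOC was thus low on all 24 h arrays, above every 0 h array at 2 d, 4 d and 6 d, and at 8 d close to the 0 h range again. It fell by 0.77 ± 0.17 at 24 h (adjusted p = 0.00285). It rose by 1.45 ± 0.17 at 4 d, which is 2.73-fold (adjusted p = 3.204e-07), and by 0.76 ± 0.17 at 6 d. Its difference at 8 d was 0.06 with no call. The rise of 0.47 ± 0.17 at 2 d was near the threshold (adjusted p = 0.0477) and was lost without any 1 of 0 h A, 0 h B, 0 h D, 2 d A and 2 d D (adjusted p = 0.0707 to 0.212) and with the batch letter as a block.

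ENO2, an enolase, read 8.19, 8.28 and 7.75 at 0 h, 8.55, 8.69 and 8.43 at 2 d, 8.84, 9.70 and 8.23 at 4 d, 9.30, 9.23 and 9.04 at 6 d, and 8.87, 9.04 and 8.78 at 8 d. From 2 h to 24 h its arrays lay between 7.77 and 8.33. The 4 d array of batch D overlapped 0 h, and the 6 d and 8 d arrays did not. ENO2 rose by 0.85 ± 0.22 at 4 d (adjusted p = 0.00342), 1.11 ± 0.22 at 6 d, which is 2.16-fold (adjusted p = 0.000245), and 0.82 ± 0.22 at 8 d. Its 4 d rise was 0.46 without 4 d B (adjusted p = 0.0382), and the call was lost without batch B (0.0603) and when the 2 groups were fitted alone (0.0716).

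ALDOA, the aldolase of most tissues, was 0.63 ± 0.26 above 0 h at 4 d (adjusted p = 0.0532, 95% interval 0.09 to 1.17), 0.56 at 6 d and 0.51 at 8 d, with no call. A further ALDOA probe, above background on 24 of 24 arrays, gave 0.41, 0.37 and 0.30 at these times. With the mean of all kept probes ALDOA was called as a rise at 4 d and 6 d, and without batch D at 4 d. The 24 h arrays of the probe used, at 11.37, 11.40 and 12.33, show how far batches could differ. ENO1, the enolase of most tissues, fell by 0.26 ± 0.10 at 8 d (adjusted p = 0.0346), lost without 0 h B, 0 h D or 8 d D (adjusted p = 0.0607, 0.112 and 0.232). LDHA, which turns pyruvate to lactate, fell by 0.44 ± 0.13 at 6 d (adjusted p = 0.00927) and 0.63 ± 0.13 at 8 d (adjusted p = 0.00038). Its 8 d arrays of 12.87, 12.43 and 12.68 lay below all 0 h arrays (13.25 to 13.35). LDHB, its partner subunit, had no call, with a difference of 0.37 ± 0.13 at 24 h (adjusted p = 0.057) and 0.01 at 8 d.

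TPI1, PGK1 and PKM had no call in any of the 10 comparisons. At 8 d TPI1 was −0.09 from 0 h with a 95% interval of −0.44 to 0.27, PGK1 0.06 with −0.29 to 0.41, and PKM 0.13 with −0.20 to 0.47. The 8 d changes of PFKP and HK2 lie outside all 3 intervals. A further PKM probe, above background on 24 of 24 arrays, gave 0.49 at 24 h, when the probe used gave 0.06, and 0.30 at 4 d, when it gave −0.14. The probes of PKM thus disagree. GAPDH fell by 0.24 ± 0.08 at 6 d (adjusted p = 0.0194) and 0.21 ± 0.08 at 8 d (adjusted p = 0.0383), while its other bright probes gave 0.04 and −0.43 at 8 d. The 8 d fall of GAPDH was lost without any 1 of 0 h A, 0 h B, 0 h D, 8 d A and 8 d B (adjusted p = 0.0545 to 0.16), and the 6 d fall without 0 h A, 0 h D or 6 d B (0.0511, 0.0566 and 0.0601).

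Among the alpha subunits of HIF, HIF1A was higher and EPAS1 lower at 4 d and 6 d. EPAS1, the other alpha subunit beside HIF1A, read 11.58, 11.46 and 11.59 at 0 h, 11.09, 11.13 and 11.09 at 8 h, and 10.43, 10.44 and 9.97 at 24 h. It read 11.22, 11.04 and 10.90 at 2 d, 10.90, 10.47 and 10.53 at 4 d, 10.94, 10.89 and 10.18 at 6 d, and 10.62, 10.33 and 10.67 at 8 d. All arrays from 8 h on lay below all at 0 h, while the 2 h arrays (11.47 to 11.52) overlapped them. EPAS1 fell by 1.26 ± 0.16 at 24 h, which is 2.40-fold (adjusted p = 9.969e-06), by 0.91 ± 0.16 at 4 d, 0.88 ± 0.16 at 6 d and 1.01 ± 0.16 at 8 d (adjusted p = 2.09e-05). The 2 d fall of EPAS1, 0.49 ± 0.16 (adjusted p = 0.0328), was lost without any 1 of 0 h A, 0 h B, 0 h D, 2 d B and 2 d D (adjusted p = 0.0524 to 0.125).

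HIF1A read 9.62, 9.49 and 8.86 at 0 h and 10.20, 10.19 and 9.71 at 4 d, with the batch D array the lowest at both times. It rose by 0.71 ± 0.19 at 4 d (adjusted p = 0.00347), and its second bright probe gave 0.76. Its 6 d rise of 0.48 ± 0.19 (adjusted p = 0.0418) was lost without 0 h D (0.24, adjusted p = 0.307), 6 d A, 6 d B or 6 d D (0.065, 0.0743 and 0.111). EGLN1, the prolyl hydroxylase that marks HIF alpha subunits in oxygen and is itself a HIF target, rose by 0.34 ± 0.10 at 24 h, 0.41 ± 0.10 at 2 d, 0.77 ± 0.10 at 4 d (adjusted p = 1.476e-06), 0.53 ± 0.10 at 6 d and 0.50 ± 0.10 at 8 d. All EGLN1 arrays from 24 h on lay above all at 0 h. The 24 h call was lost without 0 h D, 24 h B or 24 h D (adjusted p = 0.124, 0.0795 and 0.0588). With median centring the EGLN1 rises of 24 h, 2 d, 6 d and 8 d were not called, and that at 4 d was.

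Among the hypoxia-responsive members 3 were called at 2 h, and ANGPTL4 had the largest change of all 35 members at 4 d, 6 d and 8 d. ANGPTL4, a secreted inhibitor of lipoprotein lipase, read 9.41, 9.12 and 8.86 at 0 h, 11.41, 11.16 and 10.31 at 2 h, 10.89, 10.48 and 10.55 at 8 h, and 9.65, 9.47 and 9.59 at 24 h. It read 10.78, 10.70 and 10.57 at 2 d, 11.98, 11.51 and 11.54 at 4 d, 11.86, 11.87 and 11.99 at 6 d, and 11.76, 11.76 and 12.23 at 8 d. No later array overlapped 0 h, and the 24 h arrays lay nearest to it. ANGPTL4 rose by 1.83 ± 0.20 at 2 h, which is 3.56-fold (adjusted p = 3.647e-05), 1.51 ± 0.20 at 8 h, 1.55 ± 0.20 at 2 d, 2.55 ± 0.20 at 4 d, 2.78 ± 0.20 at 6 d and 2.79 ± 0.20 at 8 d, which is 6.89-fold (adjusted p = 9.879e-11). At 24 h it was 0.44 ± 0.20 above 0 h with no call (adjusted p = 0.146). A dimmer ANGPTL4 probe, above background on 18 of 24 arrays, gave 0.51 at 2 h and 1.22 at 8 d, the same signs and smaller sizes.

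BHLHE40, a transcriptional repressor of the clock and hypoxia responses, read 9.24, 9.17 and 9.51 at 0 h, 11.42, 11.42 and 10.66 at 2 h, 9.86, 9.69 and 10.33 at 8 h, and 9.66, 9.76 and 10.40 at 24 h. It read 10.86, 10.88 and 11.04 at 2 d, 11.12, 11.43 and 11.04 at 4 d, 10.99, 11.11 and 10.73 at 6 d, and 10.37, 10.63 and 10.80 at 8 d. It was high at 2 h, lower at 8 h and 24 h and high again from 2 d, with no array in the 0 h range. ANGPTL4 was likewise lower at 24 h, but its 8 h mean (10.64) was close to its 2 d mean (10.68). BHLHE40 rose by 1.86 ± 0.21 at 2 h, which is 3.64-fold (adjusted p = 3.647e-05), 1.62 ± 0.21 at 2 d, 1.89 ± 0.21 at 4 d (adjusted p = 9.015e-08) and 1.29 ± 0.21 at 8 d. The 2 h call was lost without batch A (1.70, adjusted p = 0.0942), and the 24 h rise of 0.63 ± 0.21 (adjusted p = 0.0339) without 0 h A, 0 h B or 24 h D (0.0937, 0.109 and 0.205).

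PPP1R3C, which brings protein phosphatase to glycogen and favours its storage, ran the opposite way at first. It read 8.08, 8.23 and 8.94 at 0 h, 6.98, 6.63 and 7.62 at 2 h, 7.80, 7.64 and 7.65 at 8 h, and 7.89, 7.89 and 7.81 at 24 h. It read 7.90, 7.90 and 7.98 at 2 d, 8.29, 8.19 and 8.16 at 4 d, 8.65, 8.69 and 9.11 at 6 d, and 9.68, 9.50 and 9.60 at 8 d. The 2 h to 2 d arrays all lay below 0 h and the 8 d arrays all above, and at 0 h the batch D array stood above the other two. PPP1R3C fell by 1.34 ± 0.19 at 2 h, which is 2.53-fold (adjusted p = 0.000407), and rose by 1.18 ± 0.19 at 8 d, which is 2.26-fold (adjusted p = 2.184e-05). The 2 h fall was lost without batch A or batch B (adjusted p = 0.108 and 0.116), and the 8 h fall of 0.72 ± 0.19 (adjusted p = 0.0312) without 0 h D, 8 h A, 8 h B or 8 h D (0.276, 0.067, 0.125 and 0.07).

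VEGFA and CA12, which act on vessels and on pH outside the cell, were high late. VEGFA, the main growth factor of blood vessels, read 5.51, 5.70 and 5.84 at 0 h, 6.34, 5.93 and 5.96 at 2 h, 5.54, 5.50 and 6.04 at 8 h, and 6.05, 6.14 and 6.29 at 24 h. It read 6.77, 6.81 and 6.69 at 2 d, 7.07, 6.98 and 6.96 at 4 d, 6.86, 6.99 and 7.15 at 6 d, and 6.67, 7.64 and 7.18 at 8 d. VEGFA was above background on all 24 arrays, but it was dim at 0 h, with a mean of 5.69 against 5.54 for PDK1. Every array from 2 d on lay above every array up to 24 h. VEGFA rose by 1.07 ± 0.18 at 2 d, 1.32 ± 0.18 at 4 d, 1.32 ± 0.18 at 6 d and 1.48 ± 0.18 at 8 d, which is 2.79-fold (adjusted p = 2.771e-07).

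CA12, a carbonic anhydrase of the cell surface, read 7.27, 7.16 and 7.39 at 0 h, 6.81, 6.85 and 6.88 at 24 h, 7.23, 7.45 and 7.30 at 2 d, 8.24, 7.93 and 7.70 at 4 d, 8.87, 8.97 and 8.35 at 6 d, and 7.99, 8.13 and 8.19 at 8 d. At 2 h and 8 h its arrays lay between 6.81 and 7.41. It was highest at 6 d, with batch D again below A and B, and all arrays from 4 d on lay above 0 h. CA12 rose by 0.68 ± 0.15 at 4 d, 1.46 ± 0.15 at 6 d, which is 2.74-fold (adjusted p = 1.718e-08), and 0.83 ± 0.15 at 8 d. Its 24 h fall of 0.43 ± 0.15 (adjusted p = 0.044) was lost without any 1 of the 0 h or 24 h arrays (adjusted p = 0.0503 to 0.161), with the batch letter as a block and without background correction.

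**Figure D5:**
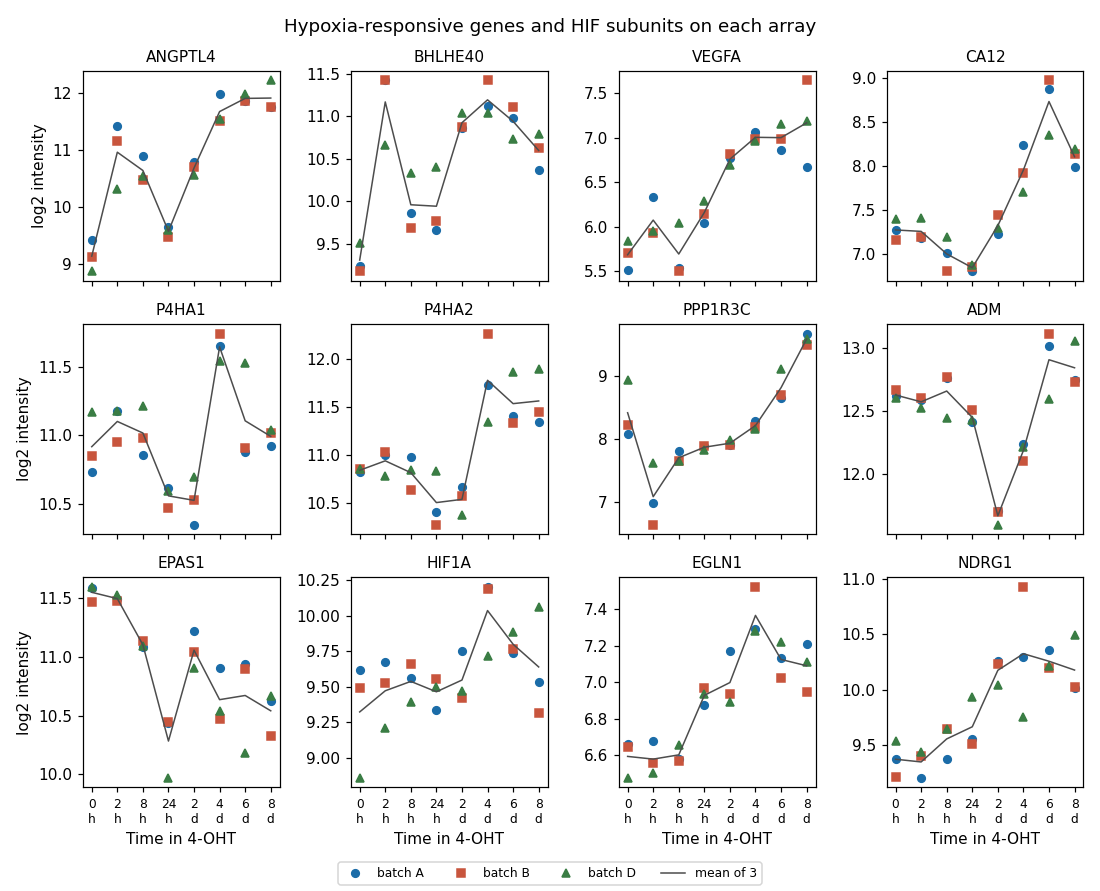
Log2 intensity of 12 hypoxia-responsive genes, HIF subunits and EGLN1 on each array by time in 4-OHT; points are arrays, with colour and shape for the batch, and lines join the means of 3. ANGPTL4 and BHLHE40 are high at 2 h, nearer to 0 h but still above it at 24 h, and high again from 2 d. PPP1R3C is low at 2 h and highest at 8 d, and P4HA1 and P4HA2 stand out at 4 d.

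Collagen prolyl hydroxylases and the remaining members were mostly highest at 4 d. P4HA1, a catalytic subunit of collagen prolyl hydroxylase, read 10.73, 10.85 and 11.17 at 0 h, 10.35, 10.53 and 10.70 at 2 d, 11.65, 11.74 and 11.54 at 4 d, 10.88, 10.91 and 11.53 at 6 d, and 10.92, 11.01 and 11.04 at 8 d. From 2 h to 24 h its arrays ran from 10.47 to 11.21. The 4 d arrays lay above all others, and P4HA1 rose by 0.73 ± 0.15 at 4 d (adjusted p = 0.000325) and was 0.08 from 0 h at 8 d, with no call. Its other bright probe gave 1.03 at 4 d and 0.08 at 8 d.

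P4HA2, the sister subunit, read 10.82, 10.85 and 10.85 at 0 h, 10.67, 10.58 and 10.37 at 2 d, 11.73, 12.27 and 11.35 at 4 d, 11.41, 11.33 and 11.87 at 6 d, and 11.34, 11.45 and 11.90 at 8 d. Its arrays from 2 h to 24 h ran from 10.28 to 11.04. P4HA2 stood above 0 h on all 9 arrays from 4 d on, and rose by 0.94 ± 0.19 at 4 d (adjusted p = 0.000349), 0.69 ± 0.19 at 6 d and 0.72 ± 0.19 at 8 d (adjusted p = 0.00332). NDRG1, a hypoxia-inducible gene of differentiation, rose by 0.81 ± 0.20 at 2 d, 0.96 ± 0.20 at 4 d, 0.89 ± 0.20 at 6 d and 0.81 ± 0.20 at 8 d (adjusted p = 0.00149). ANKRD37, an ankyrin repeat gene, rose by 0.49 ± 0.14 at 24 h, 0.59 ± 0.14 at 2 d, 0.73 ± 0.14 at 4 d (adjusted p = 0.000219) and 0.39 ± 0.14 at 8 d. Its 24 h call was lost without 0 h A, 0 h D, 24 h A or 24 h D (adjusted p = 0.0525 to 0.0688), and its 8 d call without 0 h A, 0 h D, 8 d A or 8 d B (0.0503 to 0.0803). KDM3A, a histone demethylase, rose by 0.73 ± 0.14 at 4 d (adjusted p = 0.000157), and at 6 d it was 0.34 ± 0.14 above 0 h (adjusted p = 0.0503).

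ADM, a vasodilator peptide, fell at 2 d and 4 d. It read 12.62, 12.67 and 12.60 at 0 h, 11.70, 11.70 and 11.59 at 2 d, 12.24, 12.10 and 12.21 at 4 d, 13.01, 13.12 and 12.59 at 6 d, and 12.75, 12.73 and 13.05 at 8 d. From 2 h to 24 h its arrays ran from 12.41 to 12.77. The 2 d arrays were the lowest of all, and the 6 d arrays of batches A and B were high while that of batch D lay just below the 0 h arrays. ADM fell by 0.96 ± 0.12 at 2 d (adjusted p = 2.663e-06) and 0.44 ± 0.12 at 4 d (adjusted p = 0.00438), and was 0.28 ± 0.12 above 0 h at 6 d with no call (adjusted p = 0.0593). At 2 d P4HA1 and PPP1R3C also differed from 0 h by −0.39 ± 0.15 (adjusted p = 0.0586) and −0.49 ± 0.19 (0.0723), and with the batch letter as a block both were called.

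The step from 2 d to 4 d was compared directly, as the difference of these group means in the same fit of all arrays. The 0 h arrays do not enter this difference, but they enter the spread behind its standard errors and p-values. Of 35 members 13 rose and 3 fell, a median change of 0.27 (0.18 to 0.38 with arrays or batches left out), when 36.2% of all genes were called and 17% rose. PFKFB4 rose by 1.34 ± 0.24, P4HA2 by 1.24 ± 0.19 and P4HA1 by 1.12 ± 0.15, which is 2.17-fold (adjusted p = 3.188e-06). ANGPTL4 rose by 0.99 ± 0.20, ALDOC by 0.97 ± 0.17 and KDM3A by 0.84 ± 0.14. Of the 11 tested hypoxia-responsive members other than HIF subunits and EGLN1, 6 rose and 0 fell. HK1 fell by 0.47 ± 0.09 (adjusted p = 0.000387) as HK2 rose by 0.76 ± 0.15 (adjusted p = 0.000391), and no HK1 or HK2 array of 4 d overlapped 2 d. The HK1 fall was lost without batch A (adjusted p = 0.0507) and with median centring (0.14). Of the other falls, that of GAPDH (0.21 ± 0.08, adjusted p = 0.0461) was lost without 2 d A, 2 d B, 2 d D, 4 d B or 4 d D (adjusted p = 0.0692 to 0.145). That of EPAS1 (0.42 ± 0.16, adjusted p = 0.0496) was lost without 2 d A, 2 d B, 4 d B or 4 d D (0.0983 to 0.182). When only these 2 groups were fitted, 12 members rose and 1 fell, and the calls of GAPDH, EGLN1 and EPAS1 were lost. Without batch A 8 members were called, all of them rises. With median centring 11 rose and 0 fell, when the share of called genes that rose went from 47.0% to 55.8%.

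From 4 d to 8 d more members fell than rose, 9 against 4, with a median change of −0.22 (−0.37 to −0.13 with arrays or batches left out), when 20.4% of all genes were called and 10.1% fell. SLC2A3 fell by 1.48 ± 0.10, which is 2.78-fold (adjusted p = 8.352e-10), and ALDOC by 1.39 ± 0.17, which is 2.62-fold (adjusted p = 3.398e-06). P4HA1 fell by 0.65 ± 0.15, PFKL by 0.57 ± 0.13 and PFKP by 0.44 ± 0.11. No 8 d array of these 5 genes overlapped 4 d. The falls of P4HA1 and PFKL were lost without batch A (adjusted p = 0.069 and 0.058), and those of P4HA1 and PFKP without batch B (0.075 and 0.106). The other falls, those of BHLHE40, SLC2A1, KDM3A and LDHA, were less stable. All were lost without 4 d A (adjusted p = 0.0672, 0.158, 0.104 and 0.0556), and each was also lost without some other single arrays. PPP1R3C rose by 1.38 ± 0.19, which is 2.60-fold (adjusted p = 1.804e-05), ADM by 0.66 ± 0.12 and HK2 by 0.53 ± 0.15 (adjusted p = 0.0141). The HK2 call was lost without 4 d B or 8 d D (adjusted p = 0.0826 and 0.0533). That of HK1, the remaining rise, was lost without 4 d A, 4 d D, 8 d A or 8 d B (0.0966 to 0.114). The count was 6 without batch A, 6 without batch B, 8 without 4 d A, 6 when the 2 groups were fitted alone, and 19 without batch D (2 rose and 17 fell). With median centring 1 rose and 10 fell, and the share of called genes that rose went from 50.7% to 25.0%.

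Cells at 8 d were also set against cells at 2 d, which had the same 4-OHT for less time. Of the 35 members 10 rose and 8 fell, when 39.4% of all genes were called, 19.2% as rises and 20.3% as falls. The member median of 0.03 had no stable sign: it was −0.14 without batch D, −0.12 without 8 d D, −0.04 without 2 d D and −0.10 with median centring. PPP1R3C rose by 1.66 ± 0.19, which is 3.16-fold (adjusted p = 2.888e-07), HK2 by 1.29 ± 0.15, ANGPTL4 by 1.23 ± 0.20, ADM by 1.18 ± 0.12 and P4HA2 by 1.02 ± 0.19. SLC2A3 fell by 1.10 ± 0.10, which is 2.15-fold (adjusted p = 1.371e-08), LDHA by 0.65 ± 0.13, PFKP by 0.56 ± 0.11, ENO1 by 0.39 ± 0.10 and GAPDH by 0.36 ± 0.08 (adjusted p = 0.00123). Of the 10 tested members of lower glycolysis and lactate formation, 0 rose and 3 fell in this comparison, a number of falls near the share of all genes. Of the 11 other hypoxia-responsive members 7 rose and 0 fell. Among these, the rise of KDM3A was lost without 2 d A, 2 d B, 8 d A or 8 d B (adjusted p = 0.0732 to 0.141). That of P4HA1 was lost without 2 d A (0.0809), and both were lost with median centring (0.283 and 0.1265). The falls of ENO1 and GAPDH were lost without batch A (0.103 and 0.0742). Without batch A 11 members were called, and with median centring 6 rose and 8 fell, when the share of called genes that rose went from 48.6% to 39.0%.

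Genes of the same pathways outside the 39 were counted from lists written from general knowledge, though with earlier results of these data known. Their counts are read against the 44.1%, 47.6% and 36.2% of all genes called at 4 d, at 8 d and between 2 d and 4 d. Of 6 tested further isozymes and regulators of glycolysis, 4 rose and 0 fell at 8 d, with BPGM, which makes bisphosphoglycerate, up by 1.75 ± 0.12 (adjusted p = 1.922e-11). PFKFB2, another bisphosphate regulator, was up by 0.94 ± 0.16 and TIGAR, a fructose bisphosphatase under p53, up by 0.65 ± 0.12. Of 20 tested further hypoxia-inducible genes, 10 rose and 4 fell at 4 d and 6 rose and 4 fell at 8 d, the 8 d count being near the share of all genes. Among these FAM162A was 1.32 ± 0.20 higher at 4 d, while EDN1, which encodes endothelin, was 1.69 ± 0.26 lower at 4 d and 1.12 ± 0.26 higher at 8 d (adjusted p = 0.00087). Between 2 d and 4 d, 10 of these 20 rose and 0 fell, with DDIT4, an inhibitor of mTORC1, up by 1.93 ± 0.38 and STC2, a secreted glycoprotein, up by 1.60 ± 0.11.

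Neighbouring pathways were counted the same way, again when 47.6% of all genes were called at 8 d, and called shares ran from 30% of the oxygen sensing genes to 55.6% of the glycogen genes. Of 11 tested genes of pyruvate and lactate handling 3 rose and 2 fell at 8 d. BSG, the chaperone of lactate transporters, was up by 0.67 ± 0.21 and PDP1, a phosphatase that activates pyruvate dehydrogenase, up by 0.49 ± 0.14, with PDHX, a subunit of that complex, up by 0.44 ± 0.12. Of 6 genes of the pentose phosphate pathway 1 rose and 1 fell at 8 d, PGD by 0.81 ± 0.17 and RPIA by −0.42 ± 0.11. Of 9 genes of glycogen metabolism 1 rose and 4 fell at 8 d, with UGP2, which makes the sugar donor of glycogen, at −0.80 ± 0.16 and PYGL, a glycogen phosphorylase, at −0.75 ± 0.11. Of 10 genes of oxygen sensing 2 rose and 1 fell at 8 d. At 4 d ARNT2 and CITED2 fell by 0.98 ± 0.15 and 0.74 ± 0.16 while ELOB, an elongin of the VHL ligase, rose by 0.59 ± 0.11 (adjusted p = 0.000147).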

How the data were processed

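The authors deposited log2 intensities of 48701 probes per array, and a series matrix of log2 values that differ from a quantile normalization of the former by a median of 0.00274. These units were judged from the values, and scanner software and the authors' steps are not given in the sources used here. Background was corrected with normexp (offset 16) on the linear values, and log2 of the result was quantile-normalized across arrays. A probe was above background where a model of each array's mode and lower spread gave a p under 0.01, and genes above background on at least 3 arrays were tested. limma 3.58.1 (R 4.3.3) was fitted to 24 arrays with 8 group means and no block, with Benjamini-Hochberg adjustment, and was tested on simulated data. Probe names come from the platform annotation: 23687 probes had 1 symbol, 35 several and 24979 none.

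The members and lists were chosen with earlier results of these data known. Array values are printed for members called with at least a 2-fold change in some comparison, and up to 3 called genes are named per further list. The labels give the letters as biological batches, so they pair the arrays. Residuals of arrays with the same letter correlated at a mean of 0.0368 in batch A, 0.00435 in B and 0.0599 in D, against −0.0158 between arrays of different letter and time. Alternatives were the series matrix values, median centring, no background correction, other filters, the mean over probes, the letter as a block, an intensity trend, only the groups compared, and leaving out arrays or batches.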

Additional observations from a re-analysis of the deposited data

Results flagged for a closer look

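The changes of 5 members from 0 h had opposite called directions at different times, and the difference between those times was tested in the same limma fit, with p adjusted over all genes. PPP1R3C, the glycogen-targeting phosphatase subunit, was lower at 2 h (−1.34) and higher at 8 d (1.18), a difference of 2.51 (adjusted p = 2.406e-10). ALDOC was lower at 24 h (−0.77) and higher at 4 d (1.45), a difference of 2.21 (adjusted p = 4.235e-10). PFKFB4 was lower at 24 h (−0.73) and higher at 6 d (1.32), a difference of 2.05 (adjusted p = 2.481e-07). CA12 was lower at 24 h (−0.43) and higher at 6 d (1.46), a difference of 1.88 (adjusted p = 2.442e-10). SLC2A3 was higher at 4 d (0.90) and lower at 8 d (−0.57), a difference of −1.48 (adjusted p = 8.352e-10). The genes and times were picked from these same arrays, as the strongest of each direction. Small p-values were thus built in, and both sizes and p-values are descriptive. The 24 h falls of CA12 and PFKFB4 were the least stable of these, being lost in 13 and 8 of 18 other settings.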

How the results depend on the processing

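Of 146 calls of single members over the 10 comparisons, 72 held in all 18 other settings tried for each, 74 were lost in at least 1, and 0 changed direction in any. Of the 40 calls with at least a 2-fold change, 0 were lost when any 1 array was left out, and 2 were lost without a batch (BHLHE40 and PPP1R3C at 2 h). Over all genes, 3101 were called at 4 d without batch A, 3124 without batch B and 5023 without batch D, against 4828 with all arrays. With arrays or batches left out, the member count ran from 1 to 5 at 2 h (4 with all arrays), 1 to 4 at 8 h (4), 2 to 9 at 24 h (9), 7 to 16 at 2 d (16), 18 to 27 at 4 d (22), 16 to 21 at 6 d (21) and 17 to 21 at 8 d (23). It ran from 8 to 21 between 2 d and 4 d (16), 6 to 19 between 4 d and 8 d (13), and 11 to 19 between 2 d and 8 d (18). Median centring left 2 calls at 8 h, and fitting only 4 d and 8 d left 6 between them. With the batch letter as a replicate block the pairing changed few calls: 17 at 2 d, 23 at 4 d, 22 at 6 d and, in the other comparisons, the same counts; 2 calls were lost, those of CA12 at 24 h and ALDOC at 2 d, and 5 were gained, PPP1R3C at 24 h and 2 d, P4HA1 at 2 d, SLC2A1 at 4 d and KDM3A at 6 d. The cause of these shifts was not tested. PDK1 lies near background, where only bounds can be given.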
